A study of Mus musculus with 6 samples.

Results

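Transcripts of 7 genes of active cytosine demethylation were compared between wild-type (WT) mouse embryonic stem (ES) cells and ES cells with a knockout (KO) of Alkbh1. The genes were chosen by name and were the dioxygenase genes Tet1, Tet2 and Tet3, the glycosylase gene Tdg, and Gadd45a, Gadd45b and Gadd45g. All 7 were found among 23951 genes of the authors' deposited table, and all 7 were among the 14095 genes that the authors tested. Both groups were TT2 ES cells of a C57BL6 x CBA background at passage 5, grown without feeder cells, and they differed by the label wildtype TT2 or Alkbh1 KO. There were 2 WT libraries and 4 KO libraries, the latter from 2 clones with 2 libraries each, so an effect of the genotype and a difference between clones cannot be told apart. The authors gave 1 FPKM value per condition (fragments scaled to transcript length and to all mapped fragments), which allows levels of different genes to be compared. Values of single libraries were not at hand, so no SD or n stands beside a level, the spread over clones is unknown, and so is the sequencing depth. The labels do not say whether libraries of a group were separate cultures, and the authors' p-values may then measure technical spread only.

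The Tet enzymes oxidise the methyl group of 5-methylcytosine, first to 5-hydroxymethylcytosine and then to formyl and carboxyl forms. They need iron, oxygen and 2-oxoglutarate, as do the AlkB enzymes to which the product of Alkbh1 belongs. Thymine DNA glycosylase, the product of Tdg, cuts out the formyl and carboxyl bases, and base excision repair then restores an unmethylated cytosine. ES cells are known for high Tet1 and Tet2 and low Tet3, while Tet3 is the enzyme of the oocyte and zygote. The Gadd45 proteins are small stress-induced adaptors that bind PCNA, CDK1 and the kinase MAP3K4, and they have been proposed to guide repair enzymes to methylated sites.

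As a check of the labels, Alkbh1 stood at 33.9 FPKM in WT against 18.1 FPKM in KO by the authors' deposited table (log2 fold change -0.90, q = 0.0943), which did not pass, in a region shared with 4 other genes. The labels do not give the deleted part, so the value checks the knockout only loosely. The 7 ES cell markers stood between 75.0 and 3753 FPKM in WT and between 84.3 and 2099 FPKM in KO. Their sum went from 7193 to 4434 FPKM, with 5 of 6 tested markers lower, none higher, and Nanog failing the authors' test. The 6 tested markers lie in the highest decile by level, where 77.3% of genes were called lower and 1.57% higher. Of 9 fibroblast markers 8 were under 1 FPKM in each group, and Col3a1, Lum and Postn were listed at 0 in WT, and the summed level was 7.68 FPKM in WT against 11.1 FPKM in KO. The summed markers were 5.22 and 6.79 FPKM for extraembryonic endoderm, 5.85 and 7.28 FPKM for trophoblast, 51.7 and 49.4 FPKM for neuroectoderm, and 2.30 and 2.52 FPKM for mesoderm. In bulk RNA, fewer cells of a type and less RNA per cell cannot be told apart, and the part of these cell types in the Tet and Gadd45 results was not tested.

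Of the 7 genes, 3 rose (Tet2, Tet3 and Gadd45b), 1 fell (Gadd45a) and 3 did not pass the authors' test at q under 0.05 (Tet1, Tdg and Gadd45g), all per the authors' deposited table. The same threshold called 50.8% of all tested genes, 22.4% as higher and 28.4% as lower, so 4 calls among 7 genes are near the background and say nothing particular about these genes as a group. The median log2 fold change of the 7 genes was 0.10, beside -0.06 over all tested genes with both values above 0. By level, the WT order in the authors' deposited table was Gadd45a, Tet1, Tet2, Gadd45b, Tdg, Gadd45g and Tet3. The KO order was the same except that Gadd45g then stood above Tdg. Whether neighbours in that order differ beyond the spread over libraries was not tested, since no library values were at hand. The place of Tdg in both orders, and its swap with Gadd45g, are uncertain. Its pseudogene Gm9855 is listed in the same region, and how reads were divided between the names was not tested. Their summed level (WT 66.5 FPKM, KO 46.3 FPKM) would stand between Gadd45a and Tet1 in WT and above Gadd45a in KO.

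**Figure D1:**
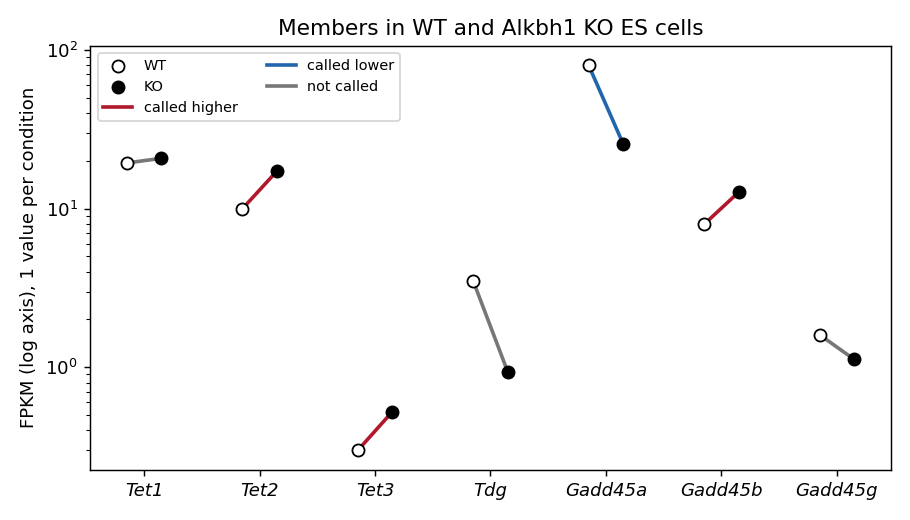
FPKM of the 7 genes in WT (open circles) and KO (filled circles) on a log axis, 1 authors' value per condition, with the line coloured by the authors' call at q under 0.05. Gadd45a drops from 80.1 to 25.5 FPKM, Tet2, Tet3 and Gadd45b climb, and Tet1 is nearly level as deposited.

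Fold changes in this table moved with level and with transcript length, and both are given beside each gene. In the lowest decile of tested genes by mean FPKM the median log2 fold change was 0.69, and in the highest decile it was -0.72. From the shortest decile of genes by longest transcript to the longest decile, the median went from -0.46 to 0.44. Summed FPKM of the tested genes was 981679 in WT and 624340 in KO, and scaling both to equal totals would add 0.65 to every log2 fold change, moving the median of all tested genes from -0.06 to 0.59. The part of scaling, level and length in the results below was not tested. As a rough error on the log2 scale, each deposited fold change was divided by its deposited test statistic. No source used here gives how that statistic was defined, so this error is a guide only.

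Tet1, the most abundant of the 3 dioxygenase genes, stood at 19.4 FPKM in WT against 20.7 FPKM in KO (the authors' deposited table). KO was thus at 107% of WT, with a log2 fold change of 0.10, a rough error of 0.25 and q = 0.622 by the authors' test. A q that misses the threshold does not show that Tet1 was the same in both. With equal totals its log2 fold change would stand at 0.75, so a nearly level Tet1 depends on the scaling. Genes of the same decile by level were mostly lower in KO, with a median of -0.34, and 81.0% of these 1409 genes lay below Tet1. Genes with transcripts as long were mostly higher, with a median of 0.44, so Tet1 lay 0.34 below that median. Among the 111 genes in the same decile by both level and length, the median was 0.039 and 58 genes lay below Tet1. Tet1 (chromosome 10, 62267317 to 62342762, mm9) shares its listed region with no other gene.

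Tet2 rose from 9.95 FPKM in WT to 17.2 FPKM in KO per the authors' deposited table. The fold was 1.73, the log2 fold change 0.79 with a rough error of 0.26, and q = 0.000206 by the authors' test. That is the smallest q in that table, a floor shared with many other genes, such as Gadd45a, Dnmt3a and Sox2, so it does not rank Tet2. Tet2 stayed above 0 on every scale tried, at 1.45 with equal totals, 0.94 against its decile by level, 0.36 against its decile by length, and 0.62 against the 121 genes of the same level and length, of which 110 lay below Tet2. Tet2 lies on chromosome 3 (133126640 to 133207354, mm9) and also overlaps no listed gene.

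Tet3 was scarce in both groups, at 0.299 FPKM in WT against 0.524 FPKM in KO (the authors' deposited table). It passed the authors' test as higher (1.75-fold, log2 fold change 0.81 with a rough error of 0.35, q = 0.00056), and genes at this level were mostly higher. In its decile by level, 41.2% of genes were called higher and the median was 0.69, so Tet3 lay 0.12 above it, with 55.3% of genes below. Against its decile by length it lay at 0.37. Against the 133 genes of the same level and length, whose median was 1.16, Tet3 lay 0.35 lower. The Tet3 rise was no larger than the median of scarce genes with long transcripts. Tet3 lies on chromosome 6 (83312367 to 83391672, mm9) in a region it shares with the microRNA gene Mir6374, listed at 0 in both groups.

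Ratios of genes within a group do not depend on how WT and KO were scaled to each other. The ratio of Tet1 to Tet2 was 1.95 in WT and 1.20 in KO, from the levels in the authors' deposited table. On the log2 scale this ratio was lower in KO by a difference of -0.69, with a rough error of 0.36 if the errors of the 2 genes are independent. Tet1 made up 65.4% of the summed Tet FPKM in WT and 53.9% in KO, Tet2 33.6% and 44.8%, and Tet3 1.01% and 1.36%. The ratio of Tet2 to Tet3 hardly moved, at 33.3 in WT and 32.8 in KO. Summed over the 3 genes, the level was 29.6 FPKM in WT against 38.5 FPKM in KO, and most of the gain was that of Tet2, which added 7.27 FPKM, against 1.36 FPKM for Tet1. By rank, which no common factor changes, Tet2 moved from percentile 56.1 of tested genes to 69.3, Tet1 from 68.8 to 73.2, and Tet3 from 3.55 to 4.13.

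**Figure D2:**
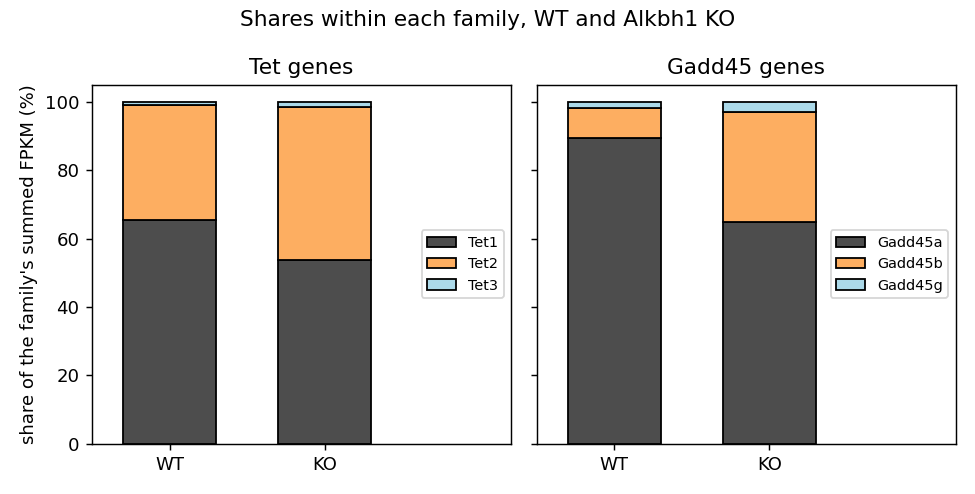
Share of each gene in the summed FPKM of its family, in percent, for the Tet genes (left) and the Gadd45 genes (right), with 1 authors' value per gene and condition. Tet2 widens from 33.6% to 44.8% of the Tet sum and Gadd45b from 8.88% to 32.3% of the Gadd45 sum.

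The bases before 1 listed start of Tet1, which did not pass, and of Tet2, which rose, are shown because these windows differ widely in the CpG sites that Tet enzymes act on. Sequences were matched by symbol in the RefSeq promoter table of build GRCm38.p6, which held all 7 genes, and coordinates of these windows are on that build, not on mm9. Each window is the 250 bases upstream of the listed start, 5′ to 3′ on the gene's strand, and capitals mark matches on either strand to any of 9 searched motifs. For Tet1 the window is chr10:62887325-62887574 and for Tet2 chr3:133544391-133544640, both on the minus strand. Bases just after the listed start were found in 1 GENCODE M21 transcript of Tet1 and in 1 of Tet2. Whether the transcripts measured here begin at the listed starts was not tested for any window shown, so a window may not be the promoter in use.
Tet1: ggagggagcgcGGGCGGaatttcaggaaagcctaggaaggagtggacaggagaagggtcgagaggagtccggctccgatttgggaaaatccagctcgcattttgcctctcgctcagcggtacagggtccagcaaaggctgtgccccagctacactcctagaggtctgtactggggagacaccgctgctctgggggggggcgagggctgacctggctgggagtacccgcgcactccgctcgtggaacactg
Tet2: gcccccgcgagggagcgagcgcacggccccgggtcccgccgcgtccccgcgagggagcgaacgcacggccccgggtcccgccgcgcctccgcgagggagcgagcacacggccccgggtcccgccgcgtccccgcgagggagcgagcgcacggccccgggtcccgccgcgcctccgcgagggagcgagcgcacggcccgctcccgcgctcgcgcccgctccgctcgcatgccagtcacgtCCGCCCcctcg
The Tet2 window held 51 CpG sites at 83.6% GC, more CpG sites than 99.9% of the 32851 windows in the table, whose median was 6. The Tet1 window held 15 and that of Tet3 17. The 1 motif match in each of the 2 windows shown was a GC box (GGGCGG), which 32.7% of all windows hold. DNA methylation was not analysed here.

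The genes whose 2 levels lay nearest to those of each Tet gene, by distance over log2 FPKM in the 2 conditions, were Trim26, 9430015G10Rik and Arnt for Tet1. For Tet2 they were Serpine2, Spag9 and Ddit3, and for Tet3 BC030307, Zadh2 and Gm9079. All 9 lay within 0.0566 of their Tet gene, a likeness that rests on 2 values per gene only.

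Tdg was listed at 3.50 FPKM in WT against 0.933 FPKM in KO (the authors' deposited table), the lowest fold change of the 7 genes. The log2 fold change was -1.91, but its rough error was 1.84 and the authors' test gave q = 0.281, so the difference did not pass. An error smaller than that was found for 97.7% of the 1408 genes in its decile by level. The fold change lay at -2.26 against the median of that decile, -1.82 against its decile by length, and -2.21 against the 124 genes of the same level and length, of which 2 lay lower. In the same region (chromosome 10, 82092582 to 82153395, mm9) the authors' deposited table lists Glt8d2 and a gene named Gm9855. Gm9855 stood far higher than Tdg, at 63.0 FPKM in WT against 45.3 FPKM in KO, a log2 fold change of -0.47 that was called lower (q = 0.00664) in the authors' deposited table.

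Gm9855 is a processed pseudogene of Tdg, named Tdg-ps2 by RefSeq. The reading frame of the Tdg transcript and the 1194 bases of Gm9855 in GENCODE M21 aligned without gaps and were identical at 1185 positions (99.25%), with 9 mismatches. The longest identical stretch ran over 756 bases, from base 99 to base 854 of the reading frame, and its first 150 bases are shown because reads from them fit both genes equally.
Tdg and Gm9855, bases 99 to 248 of the Tdg reading frame: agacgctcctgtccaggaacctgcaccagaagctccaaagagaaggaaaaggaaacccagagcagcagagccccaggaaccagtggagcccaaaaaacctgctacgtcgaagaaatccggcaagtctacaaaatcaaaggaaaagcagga
Of the 3453 words of 50 bases in the longest coding Tdg transcript, 66.3% also occurred in transcripts of other genes, on either strand, among them Tdg-ps, Gm9855, Gm5597 and the overlapping Glt8d2. For Tet2, Tet3, Gadd45b and Gadd45g no such word was shared, and for Tet1 2 words were. In RefSeq's GRCm38.p6 annotation Gm9855 lies on the same chromosome but does not neighbour Tdg, with 827 listed genes starting between them. The authors' table places it inside the region of Tdg. How reads were divided between the 2 names was not tested, so the Tdg values are uncertain. Added together, Tdg and Gm9855 stood at 66.5 FPKM in WT against 46.3 FPKM in KO, a log2 difference of -0.52, of which Tdg held 5.27% and 2.02%. This sum carries no test. With equal totals the sum would stand at 0.13 and Gm9855 at 0.18.

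**Figure D3:**
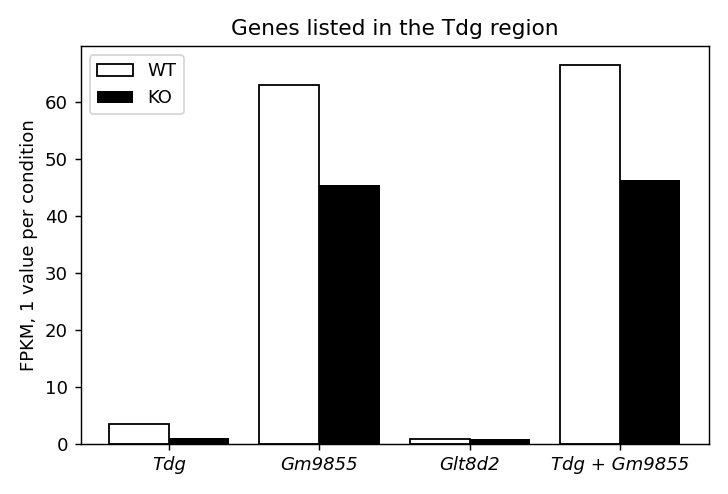
FPKM of the 3 genes that the authors' deposited table lists in the region of Tdg, and the sum of Tdg and its pseudogene Gm9855, in WT (white) and KO (black), with 1 value per condition and the axis starting at 0. Gm9855 takes nearly all of the sum, 63.0 of 66.5 FPKM in WT.

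Gadd45a had the test statistic farthest from 0 of the 7 genes (-5.87 in the authors' deposited table). It fell from 80.1 FPKM in WT to 25.5 FPKM in KO (the authors' deposited table), to 31.8% of the WT level, a 3.14-fold difference. The log2 fold change was -1.65 with a rough error of 0.28 and q = 0.000206 by the authors' test. The fall stayed below 0 on every scale tried, at -0.9985 with equal totals and -1.14 against its decile by level, in which 0.428% of 1402 genes lay lower, and at -1.37 against its decile by length. None of the 179 genes in the same decile by both level and length lay lower. Its rank moved from percentile 88.8 of tested genes to 77.4. The listed region (chromosome 6, 66985089 to 67030646, mm9) also holds the noncoding gene E230016M11Rik, which lies on the opposite strand in GENCODE M21 and shares 16.1% of the 50-base words of Gadd45a. E230016M11Rik stood at 2.42 FPKM in WT against 1.51 FPKM in KO by the authors' deposited table (log2 fold change -0.68, q = 0.54). The library kit keeps strand, but no source used here says whether the authors counted by strand.

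Gadd45b, which is known as an immediate early gene of stress and TGF-beta signalling, went the other way. It rose from 7.96 FPKM in WT to 12.7 FPKM in KO per the authors' deposited table (1.59-fold, log2 fold change 0.67, rough error 0.31, q = 0.00231). It lay above 112 of the 119 genes of the same level and length, 0.71 above the median of its decile by level and 0.95 above that of its decile by length. Gadd45b (chromosome 10, 80392835 to 80394949, mm9) overlaps no listed gene. Gadd45g, a developmental member of the family, stood at 1.60 FPKM in WT against 1.12 FPKM in KO (the authors' deposited table). Its log2 fold change of -0.52, with a rough error of 0.48 and q = 0.137, did not pass the authors' test, and it turned to 0.14 with equal totals. It lay at -0.98 against its decile by level, -0.052 against its decile by length, and -0.60 against the 158 genes of the same level and length, of which 43 lay lower. Gadd45g lies on chromosome 13 (51942043 to 51943843, mm9) and overlaps no listed gene.

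Within the family the balance moved from Gadd45a to Gadd45b. The ratio of Gadd45a to Gadd45b was 10.1 in WT and 2.01 in KO from the authors' deposited table, a log2 difference of -2.32 with a rough error of 0.42 if the 2 errors are independent. Gadd45a held 89.3% of the summed Gadd45 FPKM in WT and 64.9% in KO, Gadd45b 8.88% and 32.3%, and Gadd45g 1.79% and 2.85%. The sum itself was 89.6 FPKM in WT against 39.3 FPKM in KO.

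**Figure D4:**
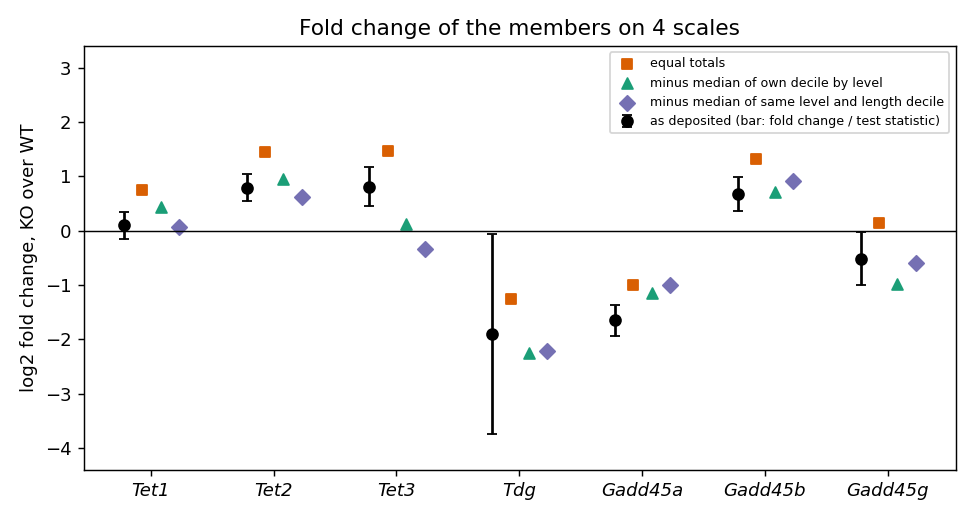
Log2 fold change of KO over WT for the 7 genes as deposited (black, with the rough error as a bar), with equal totals (squares), against the median of the same decile by level (triangles) and against the median of the same decile by level and by length (diamonds). Gadd45a stays below 0 and Tet2 and Gadd45b above 0 on all 4 scales, while Tet3 ranges from 1.46 to -0.35 and Gadd45g turns to 0.14 with equal totals. Tdg as listed also stays below 0, but with a rough error of 1.84 and q = 0.281 by the authors' test. Its sum with the pseudogene Gm9855, not drawn here, would stand at 0.13 with equal totals.

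The windows before the starts of the 3 Gadd45 genes, of which Gadd45a fell, Gadd45b rose and Gadd45g did not pass, are shown to let their short words be compared. They are again 250 bases of RefSeq's GRCm38.p6 promoter table, at chr6:67037408-67037657 (minus strand), chr10:80929841-80930090 (plus strand) and chr13:51846425-51846674 (plus strand), with motif matches in capitals.
Gadd45a: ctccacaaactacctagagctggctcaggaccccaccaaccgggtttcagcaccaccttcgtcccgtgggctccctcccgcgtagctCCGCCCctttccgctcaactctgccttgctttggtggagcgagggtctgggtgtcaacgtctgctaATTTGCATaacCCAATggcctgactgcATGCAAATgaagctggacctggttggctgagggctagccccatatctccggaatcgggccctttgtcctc
Gadd45b: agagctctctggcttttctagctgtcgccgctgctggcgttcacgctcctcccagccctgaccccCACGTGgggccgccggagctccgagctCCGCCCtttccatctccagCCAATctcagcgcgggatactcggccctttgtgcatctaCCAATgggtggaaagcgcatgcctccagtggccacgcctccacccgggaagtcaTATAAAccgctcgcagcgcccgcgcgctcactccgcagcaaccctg
Gadd45g: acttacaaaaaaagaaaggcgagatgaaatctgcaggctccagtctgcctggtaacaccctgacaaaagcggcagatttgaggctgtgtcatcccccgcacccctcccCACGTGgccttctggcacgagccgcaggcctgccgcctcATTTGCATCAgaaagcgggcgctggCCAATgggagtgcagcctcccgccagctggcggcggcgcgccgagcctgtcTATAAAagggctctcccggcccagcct
The octamer ATGCAAAT, bound by POU factors such as those encoded by Pou2f1 and Pou5f1, matched at 2 places before Gadd45a and 1 place before Gadd45g, and not in the window of Gadd45b. Over all windows 1.6% hold it. The single match before Gadd45g overlaps a match to the composite word TGATGNAA (3.45% of windows), known from ATF4 and CHOP. Each of the 3 windows held CCAAT (33.8% of windows), and those of Gadd45a and Gadd45b held GGGCGG. The E-box CACGTG (6.02%) and TATAAA (12.4%) matched before Gadd45b and Gadd45g. The words TGTTTAC of FOXO factors (3.17%), GCGGGGGCG of EGR factors (2.57%) and TGACGTCA of CREB factors (1.55%) matched in none of these 3 windows. All words were searched on both strands, and a match is a description of the letters only.

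Transcription factor genes known to act on Gadd45 genes were examined next. Of 11 tested, 4 were lower, 2 higher and 5 not called, with a median log2 fold change of -0.21 that turned to 0.45 with equal totals. The calls are 54.5% of the list, near the 50.8% of all tested genes, and 6 of the 11 lay above the median of their own decile by level. Egr1, a growth factor response gene, fell from 16.7 to 2.58 FPKM and Myc, a known repressor of Gadd45a, from 14.6 to 5.16 FPKM per the authors' deposited table. Atf4, the main factor of the amino acid stress response, fell from 363 to 183 FPKM and Trp53, which encodes p53, from 263 to 193 FPKM per the authors' deposited table. Foxo3 rose 3.58-fold to 4.68 FPKM and the p53 relative Trp73 rose 2.71-fold to 1.19 FPKM (the authors' deposited table). With equal totals Trp53 would stand at 0.21 in place of -0.44.

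Of 11 tested genes of proteins that bind Gadd45 proteins or act with them, 5 were lower (Npm1, Pcna, Taf12, Cdk1 and Ccnb1), 4 higher (Crip1, Cdkn1a, Map3k4 and Ercc5) and 2 not called (Ing1 and Map2k7), with a median of -0.18 that turned to 0.47 with equal totals. Calls made up 81.8% of the list, beside 50.8% of all tested genes (22.4% higher and 28.4% lower), and 8 of the 11 lay above the median of their own decile by level. Npm1, Pcna, Cdk1, Ccnb1 and Crip1 lie in the highest decile, where 77.3% of genes were called lower and 1.57% higher. Of that decile, 5.23% of genes lay below Npm1, 19.8% below Pcna, 68.1% below Cdk1, 79.5% below Ccnb1 and 99.1% below Crip1. Pcna, the replication clamp, fell from 723 to 356 FPKM (the authors' deposited table). Map3k4, the kinase that Gadd45 proteins activate, rose from 6.64 to 9.75 FPKM and the CDK inhibitor gene Cdkn1a from 21.6 to 34.7 FPKM per the authors' deposited table. With equal totals, Cdk1 and Ccnb1 would stand at 0.11 and 0.26 while Npm1, Pcna and Taf12 stayed below 0.

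Repair genes that act after Tet oxidation were mostly not called. Of 13 tested, 3 were lower (Apex1, Polb and Nthl1), 1 higher (Neil3) and 9 not called, with a median of 0.057. These calls are 30.8% of the list, beside 50.8% of all tested genes. Neil3, a glycosylase of oxidised bases, rose from 5.42 to 9.99 FPKM and the gap-filling polymerase gene Polb fell from 60.9 to 37.4 FPKM (the authors' deposited table). Apex1, the abasic site nuclease, fell from 56.1 to 27.6 FPKM (the authors' deposited table), in a region shared with Tmem55b. With equal totals, Nthl1 would stand at 0.24, while Apex1 (-0.37) and Polb (-0.048) stayed below 0. The glycosylase genes Mbd4 and Smug1, proposed to back up Tdg, had log2 fold changes of 0.26 (q = 0.189) and 0.027 (q = 0.912) in the authors' deposited table. Neil1 and Neil2, glycosylase genes of the same list, stood at -0.14 (q = 0.630) and 0.057 (q = 0.825) by the authors' test.

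Of 12 tested genes of Tet partners and readers of 5-hydroxymethylcytosine, 5 were lower (Thyn1, Mbd3, Fam60a, Hmces and Dppa3), none was higher and 7 were not called. That is 41.7% called, beside 50.8% of all tested genes. The list's median of -0.29 turned to 0.36 with equal totals, with Hmces and Dppa3 among the genes that would then stand above 0 (0.12 and 0.28). Against the medians of their own deciles by level, the list's median was -0.0011, with 6 of 12 above. Dppa3, which shields methylated DNA from Tet3 in the zygote, fell from 136 to 104 FPKM (the authors' deposited table). Ogt, the sugar transferase that binds Tet proteins, stood at 39.7 FPKM in WT against 48.5 FPKM in KO there (authors' deposited table, q = 0.105). Cxxc4, whose product is known to bring down Tet2 protein, was not tested and stood at or under 0.0141 FPKM.

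Of 14 tested genes that supply or use 2-oxoglutarate or carry ascorbate, 5 were lower (Idh3a, Glud1, Got1, Ogdh and Idh3g), 2 higher (Slc23a2 and Idh2) and 7 not called. The 7 calls among 14 genes are near the 50.8% of all tested genes, and 13 of the 14 lay above the median of their own decile by level, by a median of 0.23. The median was -0.33 and turned to 0.33 with equal totals, under which all 5 lower genes would also stand above 0. Slc23a2, an ascorbate transporter gene, rose from 6.56 to 9.68 FPKM and Idh2, a mitochondrial isocitrate dehydrogenase gene, from 46.9 to 62.8 FPKM (the authors' deposited table). Of 4 cytidine deaminase genes, once proposed as a second route of demethylation, Apobec2 was lower, at 7.69 FPKM in WT and 4.88 in KO per the authors' deposited table, and the others were not called (25.0% called, beside 50.8% of all tested genes).

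**Figure D5:**
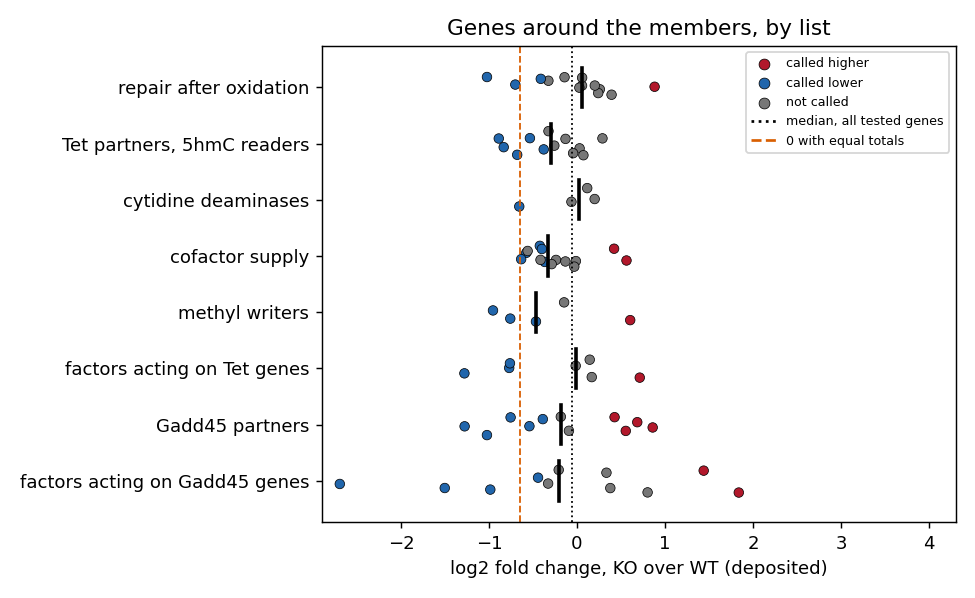
Log2 fold change of KO over WT in the authors' deposited table for the tested genes of 8 lists, 1 point per gene coloured by call, with a bar at each list's median. The dotted line is the median of all tested genes (-0.06), and points right of the dashed line (-0.65) would lie above 0 with equal totals.

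Genes of DNA methyltransferases and of their cofactors Dnmt3l and Uhrf1, together called methyl writers here, were set beside the Tet genes within each group. Of 5 tested, 3 were lower (Dnmt3a, Dnmt3b and Dnmt3l), 1 was higher (Dnmt1) and Uhrf1 was not called. That is 80.0% called, beside 50.8% of all tested genes, 28.4% of which were lower. In the deciles by level that hold Dnmt3b and Dnmt3l, 59.8% and 77.3% of genes were called lower, and Dnmt3l lay above 73.8% of its decile. With equal totals the list's median of -0.47 turned to 0.19 and Dnmt3l to 0.19, while Dnmt3a (-0.30) and Dnmt3b (-0.10) stayed below 0. Dnmt3a, a de novo methyltransferase gene, fell from 27.0 to 13.9 FPKM (the authors' deposited table). The ratio of Tet2 to Dnmt3a was 0.368 in WT and 1.24 in KO, and that of Tet1 to Dnmt3a 0.717 and 1.49, neither of which depends on the scaling. The log2 differences were 1.75 and 1.05, with rough errors of 0.36 and 0.35 if independent. The ratio of Tet1 to Dnmt3b went from 0.410 to 0.742. These ratios cover only methyltransferase genes that fell. Dnmt1 rose from 38.2 to 58.0 FPKM (the authors' deposited table) and lay above 97.9% of its decile by level. Its log2 fold change of 0.60 was larger than that of Tet1 (0.10) and smaller than that of Tet2 (0.79). Against Dnmt1, Tet1 would thus be lower in KO and Tet2 slightly higher, but no rough error was computed for these 2 differences. That of Tet2 is smaller than the rough error of Tet2 alone (0.26), so its direction is uncertain. The ratios to Dnmt3a and Dnmt3b therefore cannot be taken to hold for all methyl writers.

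Among transcription factor genes known to act on Tet genes in ES cells, 3 of 7 tested were lower (Sall4, Pou5f1 and Sox2), 1 higher (Tfcp2l1) and 3 not called (Klf4, Prdm14 and Esrrb). The share called, 57.1%, is near the 50.8% of all tested genes. Tfcp2l1, a naive pluripotency factor gene, rose from 13.8 to 22.6 FPKM and Sall4 fell from 107 to 43.96 FPKM (the authors' deposited table). Pou5f1 and Sox2, core pluripotency factor genes, fell to 716 FPKM from 1222 and to 164 FPKM from 278 per the authors' deposited table, in a decile by level where 77.3% of genes were called lower. Over the 7 genes the median of -0.015 turned to 0.64 with equal totals, while Sall4, Pou5f1 and Sox2 stayed below 0.

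Of the 14 nearest tested neighbours outside the genes' regions, 5 had a fold change of the same sign as the member. The gaps ran from 3981 bases (Bola3 beside Tet3) to 1668172 bases (Cenpe beside Tet2). The count includes 3 neighbours and 3 members that were not called, and fold changes moved with level here. It therefore cannot show whether a member goes with its neighbourhood. Tet2 rose beside Ppa2, which fell from 99.7 to 47.4 FPKM, and Gadd45a fell beside Gng12, which rose from 4.52 to 7.42 FPKM (the authors' deposited table). On the other side of Gadd45a, Serbp1 fell from 272 to 128 FPKM (the authors' deposited table).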

How the data were processed

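Libraries were made from total RNA with a strand-specific messenger RNA kit, per the labels' protocols. Reads were aligned with TopHat2 to mm9, per the submitters' processing notes; their version, annotation and scaling are not given in the sources used here. A single table has Cuffdiff's layout, per the file headers. It holds FPKM as deposited by the authors, 1 value per condition, with the authors' deposited log2 fold change, test statistic (a score), p-value and q-value. No test of expression was run anew: a gene counted as called where the authors' q was under 0.05. The deposited q equalled a Benjamini-Hochberg adjustment over tested genes to within 5.18e-07. The members and lists were chosen with earlier results of these data known.

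Genes were classed in 10 deciles by mean FPKM and, for 99.2% of genes with both values above 0, by longest GENCODE M21 transcript. Shared words of 50 bases were counted on both strands of all GENCODE M21 transcripts. Lists are described by counts and medians, without set tests. Named genes were the 7 members, up to 5 called genes per direction of each list or else the 2 with the largest fold change, the 3 genes nearest each Tet gene, neighbours, Alkbh1, Pou5f1 and Sox2; other list genes were named after their values were seen, and 1 list gene is not reported here by name. Adjustment and classes were tested on simulated data. Alternatives were other q thresholds, a 2-fold minimum, recomputed adjustment, a filter at a mean of 1 FPKM, a pseudocount of 1 FPKM, means, and centring on equal totals, all tested genes or level; centring on transcript length was added after the data were seen. Depth per sample is unknown. Python 3.11.15, NumPy 2.4.6, pandas 2.3.3, SciPy 1.17.1, statsmodels 0.14.6, Biopython 1.88 and matplotlib 3.10.9 were used.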

Additional observations from a re-analysis of the deposited data

How the results depend on the processing

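Direction and call of the 7 genes were kept in 64 values under the alternatives for single genes and lost or turned in 5. The exceptions were a minimum of 2-fold, which ended the calls of Tet2 (0.79), Tet3 (0.81) and Gadd45b (0.67) and left 0 genes higher and 6 not called, equal totals, which turned Gadd45g to 0.14, and centring on genes of the same transcript length, which turned Tet1 to -0.34. Many of the kept values could not have changed call. Equal totals, centring and the pseudocount kept the deposited q, and the recomputed adjustment equalled the deposited one to within 5.18e-07. The count of kept values is therefore no measure of robustness. Tet1 stayed not called with equal totals, though it then stood at 0.75, because no test was run on that scale. The median of the members was -0.24 as a mean, -0.21 with a mean FPKM of at least 1 (which leaves out Tet3) and 0.75 with equal totals. With a pseudocount of 1 FPKM, the log2 difference of the ratio of Tet1 to Tet3 was -0.14 and that of Tet2 to Tet3 0.50, since Tet3 lies under that pseudocount.

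With equal totals, list medians moved to 0.71 (repair) and 0.68 (deaminases), and turned to 0.36 (Tet partners), 0.33 (cofactor supply), 0.19 (methyl writers), 0.64 (factors on Tet genes), 0.47 (Gadd45 partners) and 0.45 (factors on Gadd45 genes); centring on all tested genes turned that of the factors on Tet genes to 0.045. Under equal totals, with calls kept, 2 repair genes, 2 Tet partners, 7 cofactor genes and 2 methyl writers were higher, and 3 Tet partners, 0 cofactor genes and 3 Gadd45 partners lower. These counts give only the sign of already called genes and are not calls on that scale, since the q tests the deposited fold change. Idh3a, called lower as deposited, thus counts as higher at 0.019, while Idh1, not called, is left out at 0.62. The cause of the trend that sets these scales apart was not tested. At q under 0.01, 1 repair gene and 2 cofactor genes were lower, 1 cofactor gene was higher, and 11 cofactor genes and 4 Gadd45 partners were not called. At q under 0.1, 2 repair genes and 4 factors on Gadd45 genes were higher, and 2 of the latter were not called.

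No paired analysis was possible because the table gives 1 value per condition, and for the same reason no library was left out. Depth sets no stated limit, since read numbers are unknown.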
